A study of Mus musculus with 8 samples.

Results

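The genes described here were 10 members of the Sox family, Sox2, Sox21, Sox4, Sox11, Sox5, Sox6, Sox13, Sox9, Sox7 and Sox15, out of 21938 protein-coding genes that the GENCODE annotation places on the standard chromosomes of the mouse genome build mm10. Each gene body was extended by 20 kb on both sides, and every peak whose summit lay in such a window was counted. CUT&Tag, in which an antibody tethers a transposase so that DNA close to its target is cut out and sequenced, had been performed on mouse embryonic fibroblasts (MEFs) at day 5 of reprogramming. The MEFs carried the OG2 reporter (GFP driven by Oct4) and came from embryos of OG2 males and 129 females. Both arms received retroviral Oct4, together with wild-type Nanog in the group labelled Nanog+Oct4 (NanogWT) or with a fusion of Nanog to the BRG1 interacting domain of SS18 in the group labelled NanogN70+Oct4 (NanogBiD, an identity taken from the study's text). The antibodies were against the FLAG tag carried by the introduced NANOG, against BRG1 (the motor subunit of BAF chromatin remodellers), and against H3K27ac and H3K4me1. Each of the 8 groups, 4 targets in each arm, was 1 peak list made from merged libraries. The variation between cultures is therefore unknown, and no test between arms was made. A library of untreated MEFs or of pluripotent cells was not analysed here.

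SOX proteins bind DNA through an HMG box, which bends the double helix at short AT-rich sites, and they often act beside a partner factor. Sox2 partners OCT4 in pluripotent cells and is one of the classical reprogramming factors, while several other Sox genes mark mesenchymal, neural or endothelial lineages. H3K27ac marks active promoters and enhancers, and H3K4me1 marks enhancers whether active or not.

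The lists held 30859 to 74782 peaks. The height of a summit is its tag pileup, a whole number not scaled to depth, and depth is unknown. The lowest summit of any list had 6 tags and the lowest peak score in every list was 50, so a gene without a listed peak may still carry weaker signal. The cell type was checked by H3K27ac within 2 kb of the starts of marker genes. Of 10 fibroblast markers 8 had a peak in each arm, with heights of 11 to 49 tags in NanogWT and 11 to 50 in NanogBiD, and Thy1 and Prrx1 had none. Of those 8 markers 7 were higher in NanogBiD, as Twist1 with 24 and 37 tags, and Col3a1 was equal at 11. Of 10 pluripotency markers none had a peak in NanogWT, and in NanogBiD Sall4 had 14 tags and Tdgf1 20. Of 5 epithelial markers 1 had a peak in NanogWT (Cldn6, 21 tags) and 2 in NanogBiD (Cldn6, 29 tags, and Krt8, 11 tags). In such mixed cultures, fewer cells with a site in use and less signal per cell cannot be told apart.

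Across the Sox windows BRG1 was the target with the widest gap between the arms. BRG1 peaks numbered 22 in the NanogWT list and 44 in the NanogBiD list, giving 2.0 NanogBiD peaks for each NanogWT peak (exact binomial 95% interval 1.17 to 3.50, covering counting error only), while the windows of all protein-coding genes gave 1.56. FLAG peaks numbered 52 and 66, a ratio of 1.27 (0.869 to 1.86) beside 1.24 for all gene windows. H3K27ac peaks numbered 23 and 33, a ratio of 1.43 (0.817 to 2.56) beside 1.159. H3K4me1 went the other way, with 71 and 58 peaks, a ratio of 0.817 (0.567 to 1.17) beside 0.798. The lower H3K4me1 number came from Sox5, with 34 and 20 peaks. Sox6 held 12 and 13, and the members other than Sox5 and Sox6 held 25 in each arm. The intervals of the Sox windows all included the ratio of all gene windows. The BRG1 lists themselves differed in size, and with both cut to the same number of highest-scoring peaks the Sox windows held 22 and 28 BRG1 peaks, a ratio of 1.27 (0.702 to 2.33), whose interval includes 1.

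Most of the added peaks lay in the longest genes, Sox5 and Sox6, which make up 80.2% of the length of the windows. Sox5 and Sox6 together held 13 BRG1 peaks in NanogWT against 32 with NanogBiD, a ratio of 2.46 (1.26 to 5.11), and 34 and 53 FLAG peaks, a ratio of 1.56 (0.995 to 2.47). Their BRG1 density was 0.812 peaks per 100 kb in NanogWT and 1.998 in NanogBiD, below the 1.74 and 2.71 of all gene windows in the same arms. The other 8 genes held 9 and 12 BRG1 peaks and 18 and 13 FLAG peaks, a FLAG ratio of 0.722 (0.325 to 1.56). Counted by gene, 4 of the 10 had more BRG1 peaks in NanogBiD (Sox5, Sox6, Sox13 and Sox21) and 1 had fewer (Sox15), where 41.8% of all gene windows had more and 9.97% fewer. For FLAG 2 had more (Sox5 and Sox6) and 4 had fewer, against 40.8% and 14.4% of all gene windows. For H3K27ac 3 had more and 1 fewer (29.0% and 13.4%), and for H3K4me1 3 had more and 4 fewer (16.3% and 42.3%). Each of the 4 genes with fewer FLAG peaks differed by 1 or 2 peaks. For Sox15 this came from adjacent NanogWT peaks that met 1 wider NanogBiD peak, since both of its FLAG regions had a peak in both arms. The sign of the FLAG difference turned for Sox15 with 50 kb on each side (7 and 8 peaks) and for Sox2 with 150 kb. That of the BRG1 difference turned for Sox13 when each list was cut to its top 20000 peaks by score.

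**Figure D1:**
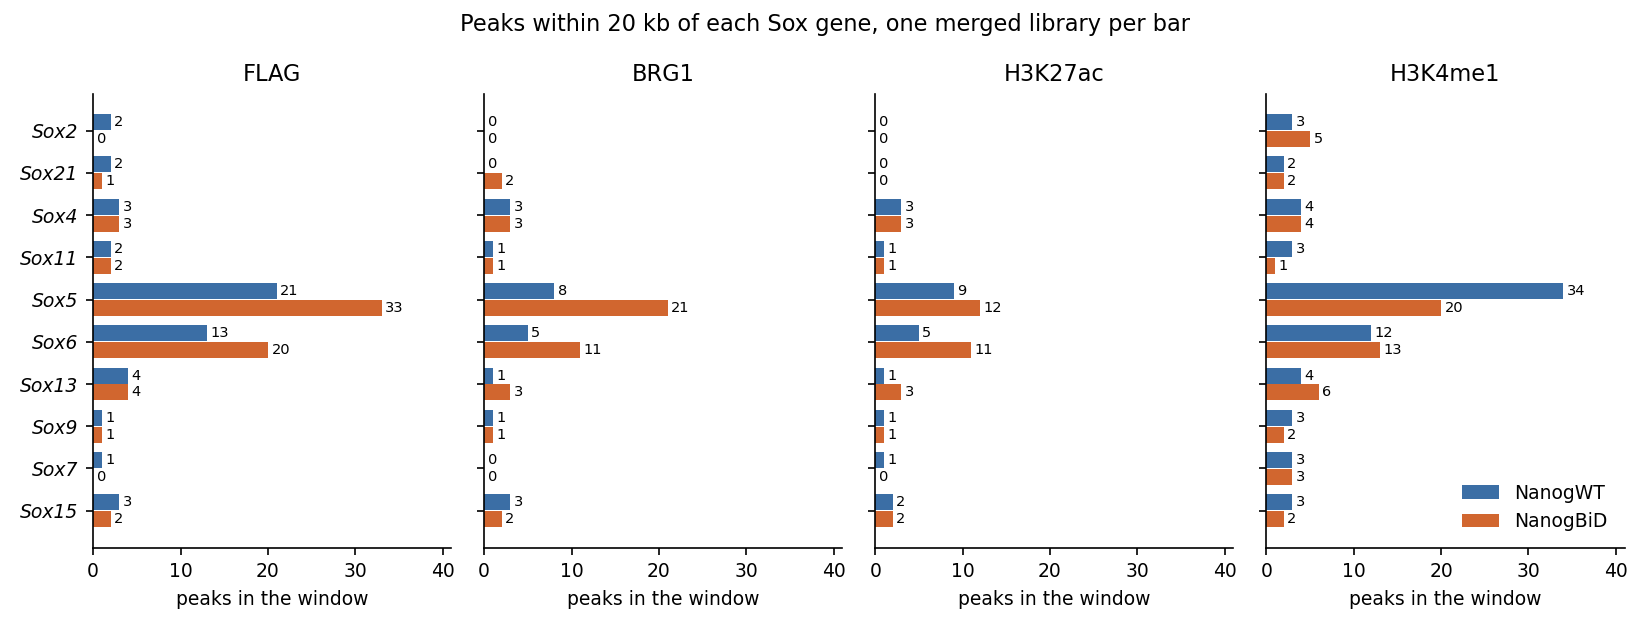
Number of peaks (horizontal axis) of each target within 20 kb of each Sox gene, with NanogWT in blue and NanogBiD in orange and the count printed at each bar; every bar is 1 merged list, so there are no error bars. Sox5 and Sox6 hold most peaks, and their BRG1 bars go from 8 to 21 and from 5 to 11 peaks.

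Sox2, the SoxB1 gene that sustains pluripotency, had almost no signal of the factors. Its gene (chr3:34650405-34652461) carried a FLAG peak of 10 tags in NanogWT, within its single exon and 745 bp from the start, and none was listed in NanogBiD. Another FLAG peak of 9 tags, in NanogWT only, lay 11.9 kb upstream at chr3:34637985-34638770 in an exon of the noncoding gene Sox2ot. Both were low in their list, since only 14.8% and 6.75% of NanogWT FLAG peaks had lower summits. Neither BRG1 nor H3K27ac had a peak in the window in either arm. H3K4me1 was present in both arms at 3 places, with 22 tags in NanogWT and 23 in NanogBiD over the gene itself (chr3:34648478-34651533), 16 and 15 tags at chr3:34641950-34643010, and 21 and 19 tags at chr3:34663592-34665919. These were 3 peaks in NanogWT and 5 in NanogBiD, since the regions over the gene and downstream of it each held a pair of narrower NanogBiD peaks, and the sign of that difference turned under a minimum score of 100, with the top 20000 peaks and with a wider window. The summit heights lay close together, but the highest scores were lower in NanogBiD, 128.7 against 269.3 over the gene, 90.3 against 123.7 upstream and 79.7 against 188.5 downstream. When the window was widened to 150 kb on each side, a setting chosen after these values were seen, FLAG peaks numbered 6 in NanogWT and 9 in NanogBiD and BRG1 peaks 2 and 4.

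Sox21, a SoxB2 gene whose protein opposes SoxB1 activity in neural progenitors, had no H3K27ac peak in either arm. At its start (chr14:118234165-118237579) FLAG was listed in NanogWT only, with 11 tags, and BRG1 in NanogBiD only, with 9 tags. H3K4me1 there had 19 tags in both arms, at summits 1.62 kb apart. The stronger region of the window lay downstream of the gene, 6.63 kb from the start, at chr14:118229671-118231592. FLAG had 19 tags there in NanogWT and 24 in NanogBiD, a height ratio of 1.26 (0.663 to 2.44), and BRG1 had 14 tags in NanogBiD with no peak in NanogWT. Neither histone mark was listed at that region in either arm.

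Sox4 and Sox11, the SoxC genes active in mesenchymal and neural progenitors, carried all 4 targets at their starts in both arms. At the start of Sox4 (chr13:28950197-28954416) FLAG had 38 tags in NanogWT and 32 in NanogBiD, BRG1 25 and 28, H3K27ac 24 and 29, and H3K4me1 15 and 18. The start of Sox11 (chr12:27340114-27344336) had nearly the same profile, with 39 and 36 tags for FLAG, 27 and 31 for BRG1, 24 and 28 for H3K27ac, and 18 and 17 for H3K4me1. Their FLAG and BRG1 summits were among the highest in the lists, above 91.2% or more of the peaks of the same list. All 8 height ratios of these starts lay between 0.842 and 1.21, with intervals that included 1. Sox4 had a pair of further regions with all targets in both arms, 1 of them past its end, 21.7 kb from the start at chr13:28929081-28932475. Its FLAG peaks, of 10 tags in NanogWT and 23 in NanogBiD, did not overlap each other, so the arms had their FLAG summits at different places there. BRG1 at that region had 9 and 14 tags, with summits 1.92 kb apart. The other, 4.87 kb upstream of Sox4 at chr13:28957522-28960236, had 22 and 17 FLAG tags, with summits 1.18 kb apart, and 15 and 16 BRG1 tags. Both were described after their values were seen.

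Sox5 is a SoxD gene, one of a group that lacks an activation domain of its own and works with Sox9 in cartilage. It spans 954 kb (chr6:143828425-144781977) and held 21 FLAG peaks in NanogWT and 33 in NanogBiD, and 8 and 21 BRG1 peaks. H3K27ac peaks numbered 9 and 12, and H3K4me1 peaks 34 and 20. Sox5 was thus the member with the most added BRG1 peaks. Its H3K4me1 difference turned its sign, to 7 and 8 peaks, when each list was cut to its top 20000 peaks by score. Its H3K27ac difference also turned its sign under that setting. Of its 57 regions, formed by merging the peaks of all lists, 54 lay in its own introns and none lay within 2 kb of another protein-coding gene's start.

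At 8 regions of the Sox5 window FLAG and BRG1 were both listed in NanogBiD and neither in NanogWT. The highest, in an intron 821 kb from the start (chr6:143959845-143961278), had 39 FLAG tags, 26 BRG1 tags and 22 H3K27ac tags in NanogBiD. It lay 13.5 kb upstream of an annotated internal start of Sox5. None of the 4 targets was listed there in NanogWT. Its FLAG summit exceeded 96.4% of the FLAG peaks of NanogBiD and its BRG1 summit 91.8% of the BRG1 peaks. At chr6:144266465-144267438 there were 27 FLAG and 10 BRG1 tags, at chr6:144755042-144757109 27 and 14, at chr6:144019920-144020582 22 and 10, and at chr6:144367530-144368392 22 and 10. Only at chr6:144755042-144757109 did NanogWT have any mark, an H3K4me1 peak of 15 tags. The other 3 were lower, with 11 FLAG and 14 BRG1 tags at chr6:144693201-144694060, 11 and 9 at chr6:143825968-143826996, and 9 and 6 at chr6:143915802-143916589. None of these 7 lower regions had H3K27ac in either arm.

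The reference sequence of 201 bases centred on the NanogBiD FLAG summit is given for 3 of these regions, read on the plus strand of mm10 (GRCm38), because they are the highest region and a pair whose summits lay beside matches to binding motifs. Capitals mark matches to TAATGG (the core bound by homeodomains of the NANOG type), to ACAAAGG or ACAATGG (SOX), to ATGCAAAT (the octamer bound by OCT factors) and to TGACTCA or TGAGTCA (AP-1), all read on either strand.
Sox5 intron, 821 kb from the start: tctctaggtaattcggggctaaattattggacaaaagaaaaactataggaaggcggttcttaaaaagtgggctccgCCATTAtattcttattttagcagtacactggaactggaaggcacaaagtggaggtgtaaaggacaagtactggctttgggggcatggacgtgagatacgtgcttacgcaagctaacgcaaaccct
Sox5 intron, 762 kb from the start: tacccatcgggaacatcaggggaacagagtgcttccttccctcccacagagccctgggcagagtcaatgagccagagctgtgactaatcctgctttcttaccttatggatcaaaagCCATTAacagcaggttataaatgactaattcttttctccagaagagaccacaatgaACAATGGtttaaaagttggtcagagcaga
Sox5 intron, 88.3 kb from the start: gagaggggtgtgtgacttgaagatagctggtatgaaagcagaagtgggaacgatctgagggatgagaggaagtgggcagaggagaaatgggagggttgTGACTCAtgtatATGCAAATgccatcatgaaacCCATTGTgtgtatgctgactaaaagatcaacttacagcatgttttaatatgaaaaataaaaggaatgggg
The first (chr6:143960457-143960657) held a homeodomain match starting 24 bases before the summit, and the second (chr6:144020110-144020310) a homeodomain match 16 bases and a SOX match 72 bases after it. The last (chr6:144693624-144693824) held AP-1, octamer and SOX matches within 40 bases. Among the regions not shown, chr6:144266465-144267438 and chr6:144367530-144368392 also held a homeodomain match, and the remaining ones held no match. These are matches of letters, and whether any factor used them was not tested.

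At other places in Sox5 FLAG was present in both arms and BRG1 in NanogBiD only. The region with the highest BRG1 summit of this kind, at chr6:144586137-144587443 in an intron 195 kb from the start, was singled out after its values were seen. FLAG had 16 tags there in NanogWT and 34 in NanogBiD, for a ratio of 2.12 (1.14 to 4.12), and BRG1 had 28 tags, H3K27ac 16 and H3K4me1 10, all in NanogBiD only. The region with the highest FLAG summit of the gene (chr6:144072050-144075934, in an intron 709 kb from the start) carried all targets in both arms. The highest BRG1 summits of the arms coincided there, with 18 tags in NanogWT and 30 in NanogBiD, for a ratio of 1.67 (0.899 to 3.17). The highest FLAG summits, of 45 tags in NanogWT and 33 in NanogBiD, lay 1.86 kb apart, so they do not give the difference in FLAG at 1 place. The opposite pattern, FLAG and BRG1 in NanogWT only, was found once in Sox5, at chr6:144710498-144711475 with 11 and 9 tags, where H3K27ac stood at 10 tags in both arms. At the Sox5 start (chr6:144780389-144783428) FLAG had 16 and 10 tags, H3K27ac 17 and 14, H3K4me1 16 and 14, and BRG1 13 tags in NanogBiD only. A second annotated start of Sox5, at chr6:144209254-144210859, had BRG1 at 12 tags in both arms and FLAG at 13 tags in NanogBiD only.

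Sox6, the other long SoxD gene (chr7:115470872-116038796, 568 kb), acts in cartilage, muscle and red cell development. It held 13 FLAG peaks in NanogWT and 20 in NanogBiD, 5 and 11 BRG1 peaks, 5 and 11 H3K27ac peaks, and 12 and 13 H3K4me1 peaks. Its highest FLAG summit in NanogWT was at an exonic region near the end of the gene (chr7:115472490-115475801), where FLAG had 44 and 37 tags, BRG1 29 and 30, H3K27ac 24 and 19, and H3K4me1 16 and 14. The highest FLAG summit of Sox6 in NanogBiD was at an intronic region 537 kb from the start (chr7:115500968-115502846), named after its values were seen, with 31 tags in NanogWT and 38 in NanogBiD. BRG1 at 26 tags and H3K27ac at 11 tags were listed there in NanogBiD only.

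FLAG and BRG1 were listed together in NanogBiD only at 4 Sox6 regions. The highest, in an intron 173 kb from the start (chr7:115865692-115867057), had 23 FLAG, 19 BRG1, 13 H3K27ac and 11 H3K4me1 tags, all in NanogBiD only, and lay 6.42 kb upstream of an annotated internal start. Its 201 bases around the FLAG summit (chr7:115866167-115866367) are shown because all 4 targets appeared there in 1 arm, and they held no match to the motifs searched.
Sox6 intron, 173 kb from the start: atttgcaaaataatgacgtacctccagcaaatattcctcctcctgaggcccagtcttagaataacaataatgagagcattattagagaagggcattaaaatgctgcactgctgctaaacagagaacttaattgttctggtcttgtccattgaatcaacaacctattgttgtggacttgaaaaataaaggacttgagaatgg
A region beside an internal start of Sox6 (chr7:115995586-115996689) had 21 FLAG and 7 BRG1 tags in NanogBiD only, with neither mark. The others had 10 FLAG and 9 BRG1 tags (chr7:115581653-115582140) and 10 and 8 tags (chr7:115452836-115454426), the latter past the end of the gene with H3K4me1 in both arms and H3K27ac at 10 tags in NanogBiD only. In the reverse direction, chr7:115488584-115490858 in an exon had 20 FLAG and 9 BRG1 tags in NanogWT only, with H3K4me1 in both arms and H3K27ac at 9 tags in NanogBiD. The nearby intronic region chr7:115487314-115488410, singled out after its values were seen, had 27 FLAG tags in NanogWT and 11 in NanogBiD, for a ratio of 0.407 (0.182 to 0.849). The same 27 and 11 FLAG tags were found at chr7:115645128-115647176, also singled out, and there BRG1 had 9 and 13. The widest difference in the other direction, at chr7:115775803-115776782 and singled out likewise, was 8 FLAG tags in NanogWT and 23 in NanogBiD, for a ratio of 2.88 (1.24 to 7.43), with BRG1 at 10 and H3K27ac at 8 tags in NanogBiD only. Shared Sox6 FLAG sites thus included heights that were lower and heights that were higher in NanogBiD. The intervals of these singled-out regions do not account for the choice of regions by their values. Peaks near the Sox6 start shared their position with the promoter of 1110004F10Rik and cannot be assigned to either gene. Inside the gene a pair of neighbouring regions at internal starts differed in BRG1, with 12 tags in NanogWT only at chr7:116029878-116032958 and 13 in NanogBiD only at chr7:116033180-116034962.

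**Figure D2:**
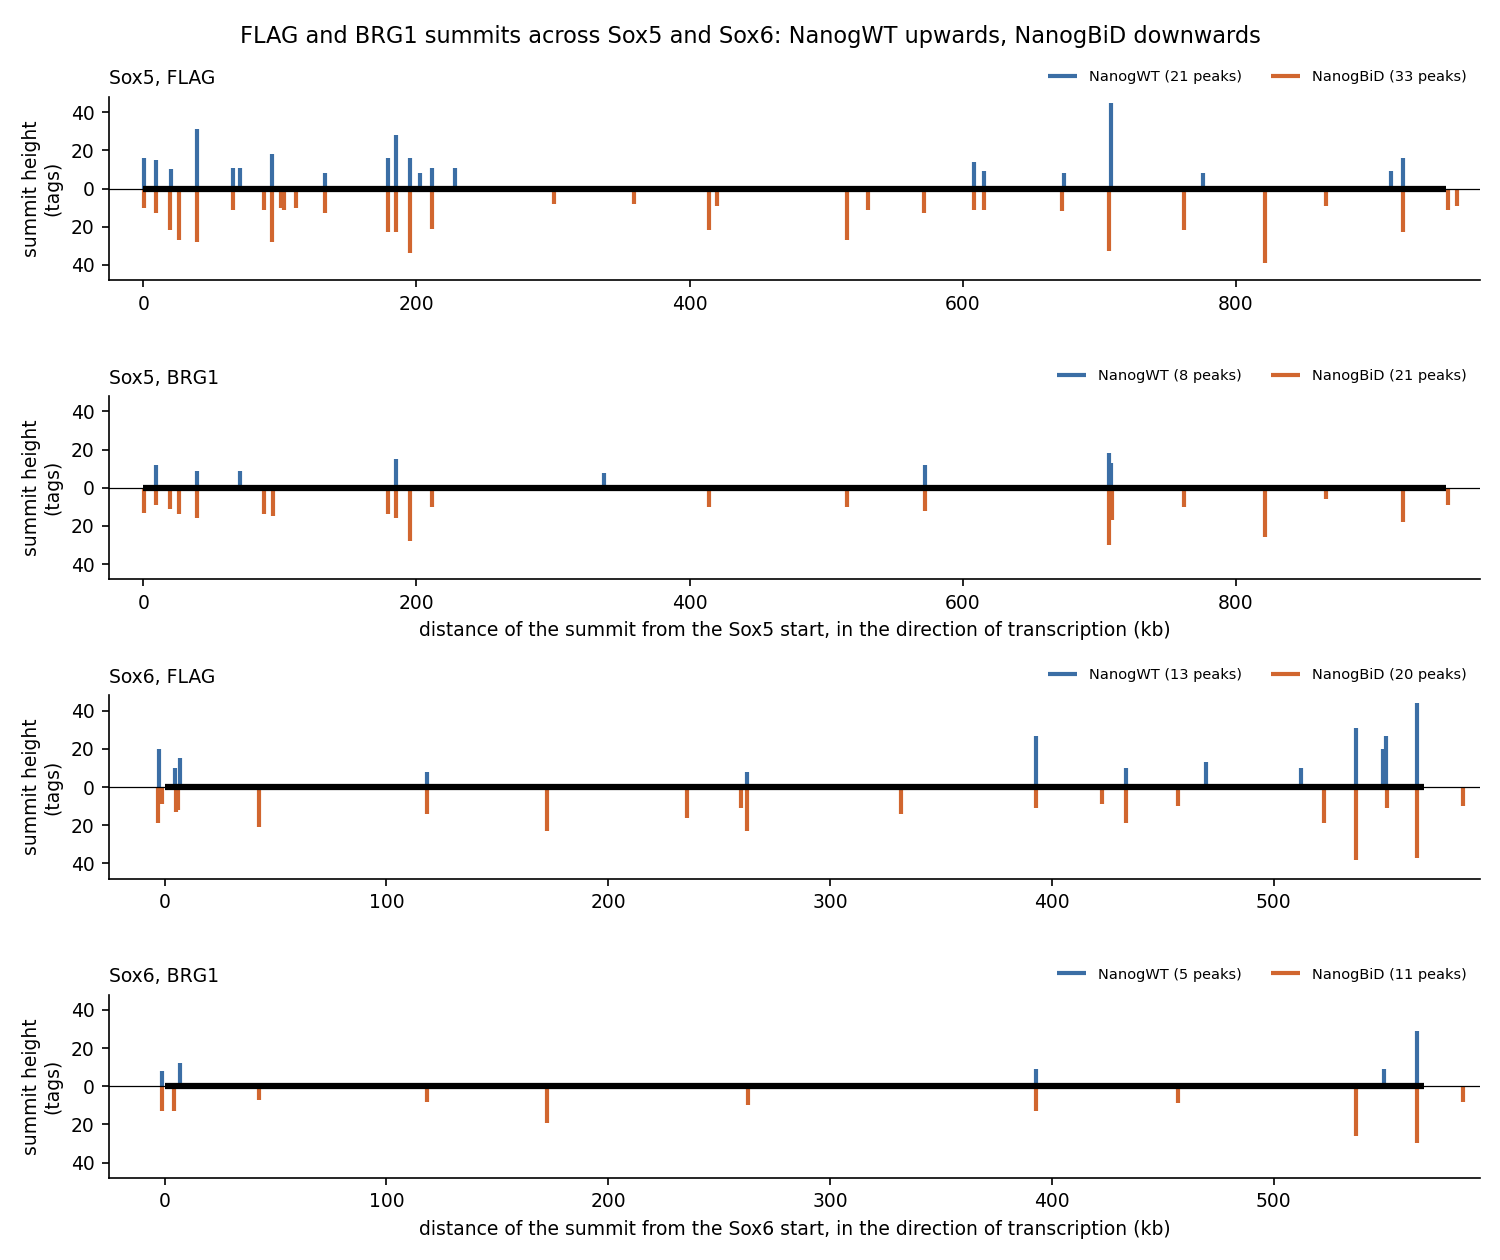
Summit heights in tags (vertical axis) of FLAG and BRG1 peaks along Sox5 and Sox6, by distance from the gene start in kb; NanogWT points upwards in blue, NanogBiD downwards in orange, and the thick black line is the gene. The NanogBiD FLAG summit of 39 tags at 821 kb in Sox5 has no NanogWT counterpart and sits over a BRG1 summit of 26 tags, while the Sox6 end has tall summits in both arms.

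Sox13, the third SoxD gene, first known as an autoantigen and expressed in T lineage cells (chr1:133382303-133424377), held 4 FLAG peaks in each arm, which formed 5 regions, 2 of them with a peak in both arms. One of these shared regions lay in a Sox13 exon at the end of the gene (chr1:133382089-133382656), with 14 FLAG tags in NanogWT and 11 in NanogBiD and no other target, and is named after its values were seen. An intronic region 26.7 kb from the start (chr1:133397011-133398723) had 15 FLAG, 9 BRG1, 13 H3K27ac and 11 H3K4me1 tags, all in NanogBiD only. A region 10.1 kb upstream (chr1:133434130-133435279) had 8 FLAG, 10 BRG1 and 16 H3K27ac tags in NanogBiD only, with H3K4me1 at 13 tags in both arms. An intronic region beside an internal start (chr1:133394484-133395732) was listed in NanogWT only, with 8 FLAG and 14 H3K4me1 tags. The other shared FLAG region was the start of the neighbouring gene Etnk2 (chr1:133362998-133364972), with 12 and 16 FLAG tags and 11 BRG1 tags in both arms. It held the highest FLAG summit of the window in NanogBiD, while in NanogWT the exonic region was higher. Over the start of Sox13 only H3K4me1 was listed, at chr1:133422603-133423714 with 15 and 10 tags and at chr1:133423858-133424613 with 16 tags in NanogBiD. A further H3K4me1 peak of 10 tags in NanogBiD lay at chr1:133385316-133386057.

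Sox9, the SoxE gene that drives cartilage and testis formation, carried all 4 targets at its start in both arms (chr11:112780844-112785573). FLAG had 25 tags in NanogWT and 16 in NanogBiD, for a ratio of 0.640 (0.319 to 1.25), BRG1 15 and 20, a ratio of 1.33 (0.649 to 2.80), H3K27ac 20 and 17, and H3K4me1 19 and 20. Sox7, a SoxF gene of the endothelium and endoderm, had H3K4me1 alone at its start (chr14:63942203-63944413), with 19 tags in both arms. Its sole FLAG peak, of 9 tags, lay 19.2 kb downstream of the start in NanogWT only (chr14:63962387-63963187), together with H3K27ac at 10 tags and H3K4me1 at 17 tags in NanogWT only.

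Sox15, the single SoxG gene, close to Sox2 in its DNA binding and expressed in embryonic stem cells and placenta, was among the factors that the study added to reprogramming cultures. Its own start (chr11:69655132-69656119) had no FLAG and no H3K27ac peak in either arm. BRG1 was listed there with 19 tags and H3K4me1 with 16 tags, both in NanogWT only. The score of that BRG1 peak was 56.9, close to the lowest of the list, although its summit was higher than 78.1% of the NanogWT BRG1 peaks. The other peaks of the window sat at the promoters of neighbouring genes. At the Mpdu1 promoter (chr11:69661093-69665408) FLAG had 20 and 24 tags, BRG1 25 and 20, H3K27ac 36 and 34, and H3K4me1 17 and 14. At the Eif4a1 and Senp3 promoter (chr11:69669875-69673099) FLAG had 29 and 25 tags, BRG1 26 and 25, H3K27ac 35 and 33, and H3K4me1 17 and 21. The lower BRG1 count of the Sox15 window in NanogBiD, 2 peaks against 3, therefore came from the peak at Sox15 itself, and the neighbours' promoters had BRG1 in both arms.

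**Figure D3:**
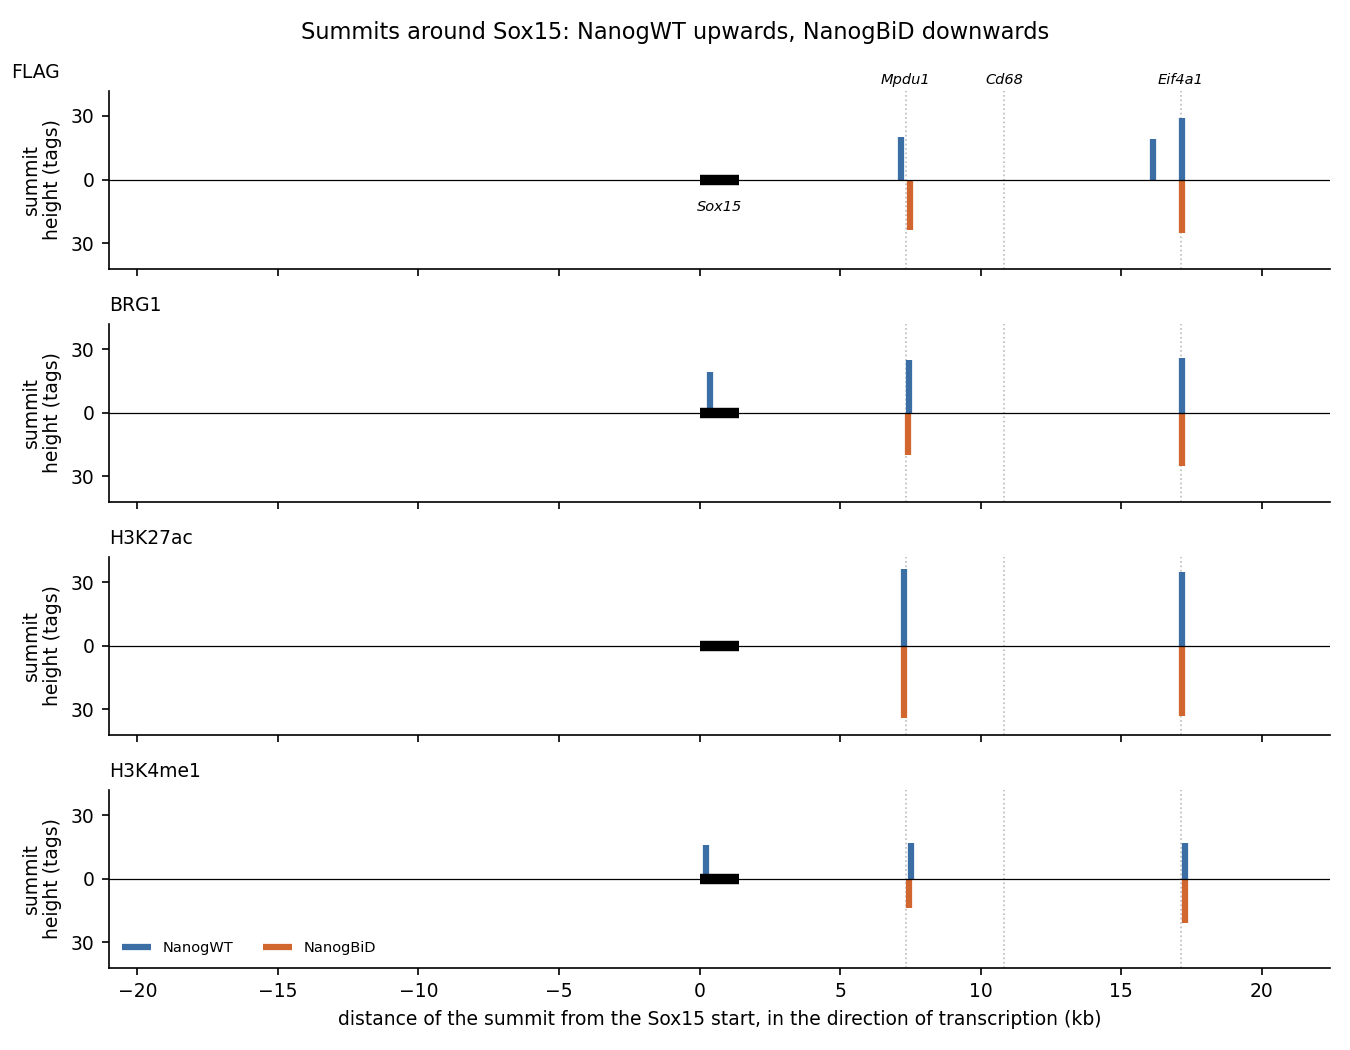
Summit heights in tags (vertical axis) of the 4 targets by distance from the Sox15 start in kb, NanogWT upwards in blue and NanogBiD downwards in orange; the black box is Sox15 and dotted lines are the starts of neighbouring genes. The FLAG and H3K27ac summits stand at or near the starts of Mpdu1 and Eif4a1, and at Sox15 itself there is a BRG1 summit of 19 tags and an H3K4me1 summit of 16 tags in NanogWT alone.

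The starts of the 10 genes were then compared as a group, taking the highest summit among peaks that reached within 2 kb of the start. FLAG was listed at 7 starts in NanogWT and 5 in NanogBiD, BRG1 at 5 and 6, H3K27ac at 4 and 5, and H3K4me1 at 10 and 9. Over all protein-coding genes the shares were 50.4% and 51.6% for FLAG, 50% and 50.7% for BRG1, 53.3% and 56.1% for H3K27ac, and 58.0% and 57.2% for H3K4me1. At the 5 Sox starts with FLAG in both arms (Sox4, Sox11, Sox5, Sox6 and Sox9) FLAG was lower in NanogBiD at 5 of 5, where it was lower at 34.5% and higher at 57.3% of all such starts. At the 4 starts with BRG1 in both arms (Sox4, Sox11, Sox6 and Sox9) BRG1 was higher in NanogBiD at 4 of 4, where it was higher at 41.7% and lower at 47.3% of all such starts. The counting interval of the height ratio included 1 at each of these Sox starts. The Sox6 start shares its peaks with 1110004F10Rik, and its FLAG value compared different summits. The NanogWT summit of 20 tags lay 2.75 kb upstream, where NanogBiD had 19 tags in a peak that ended outside the 2 kb limit. The NanogBiD value used was 9 tags, 1.08 kb upstream, for a ratio of 0.45 (0.180 to 1.03). H3K27ac was higher in NanogBiD at 2 of 4 starts (57.6% of all such starts), Sox4 and Sox11, and lower at Sox5 and Sox9 (33.1%). H3K4me1 was higher in NanogBiD at 4 of 9 (28.5%), equal at 2 and lower at 3 (61.1%). Some of these values also compared different summits. At Sox13, counted as higher, 15 tags at 1235 bp were set against 16 at 128 bp, while the region shared by both arms had 15 and 10. At Sox9, counted as higher, the summits lay 764 and 1840 bp from the start, and at Sox21, counted as equal, 2203 and 582 bp.

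**Figure D4:**
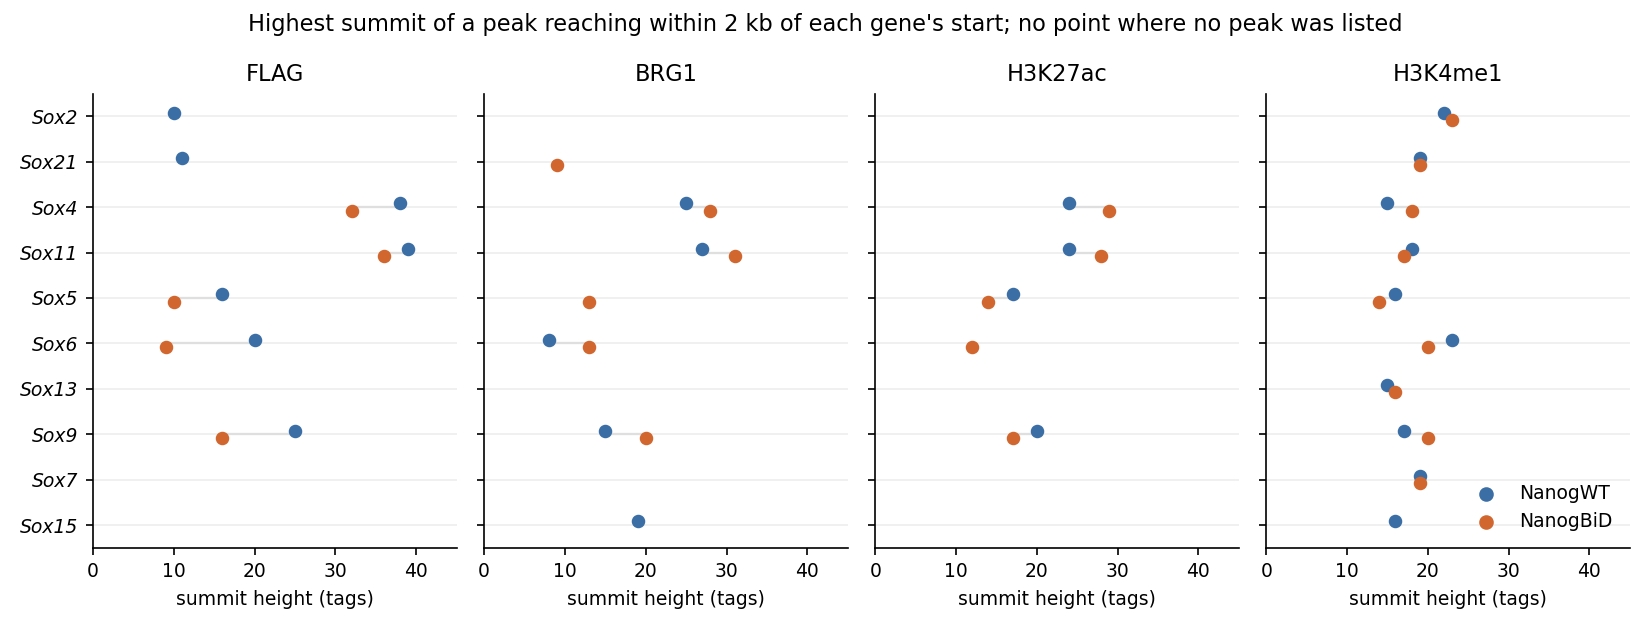
Highest summit height in tags (horizontal axis) among peaks reaching within 2 kb of each gene's start, for the 4 targets in NanogWT (blue) and NanogBiD (orange), with a grey line where both arms had a peak and no point where no peak was listed. FLAG points of NanogBiD lie left of NanogWT and BRG1 points right of it at each start with a peak in both arms, while Sox2, Sox7, Sox13, Sox15 and Sox21 have H3K4me1 without H3K27ac, Sox15 in NanogWT only.

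FLAG and BRG1 peaks of both arms were merged to count where they coincided. The Sox windows held 81 such regions, and 14 of them had FLAG and BRG1 in NanogBiD only, 17.3% (Wilson interval 10.6% to 26.9%), where 11.1% of all 93352 regions of the genome did. Of these 14, 8 were in Sox5, 4 in Sox6 and 2 in Sox13. With lists of equal size the class had 5 of 72 regions, 6.94% beside 4.03% of all regions. A further 12 regions had FLAG in both arms and BRG1 in NanogBiD only (background 15.2%), and 2 had both in NanogWT only (background 1.55%). All 4 lists had a peak at 15 regions, 18.5% beside 23.7% of all regions. The 8 shorter genes had 19 regions, of which 8, or 42.1% (23.1% to 63.7%), held both targets in both arms, and Sox5 and Sox6 had 7 of 62, or 11.3% (5.58% to 21.5%). Of those 8 the regions at Mpdu1, at Eif4a1 and Senp3, and at Etnk2 were promoters of neighbouring genes. H3K27ac was gained in NanogBiD, with a peak there and none in NanogWT, at 5 of the 14 regions, 35.7% beside 22.8% of all regions of that class. It was gained at 5 of the 12 regions with FLAG in both arms, 41.7% beside 31.8%.

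**Figure D5:**
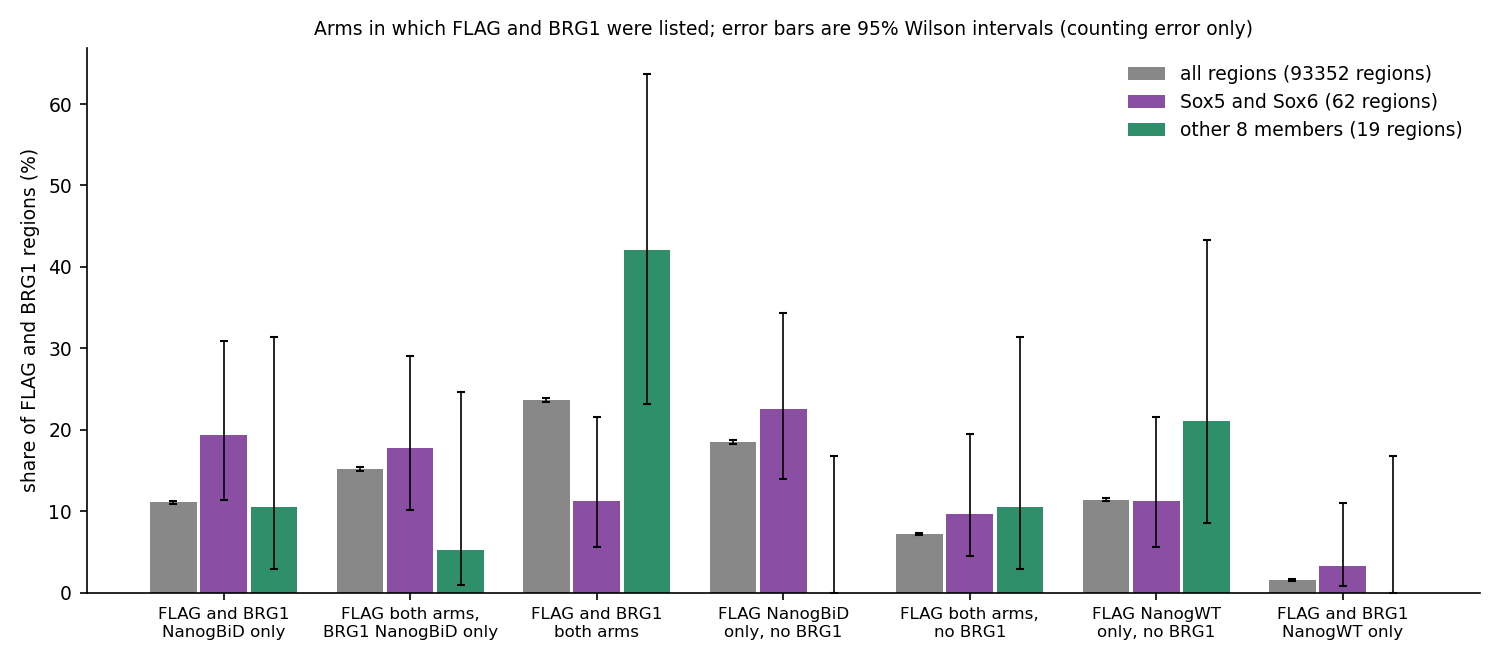
Share in percent (vertical axis) of the FLAG and BRG1 regions of Sox5 and Sox6 (purple), of the other 8 Sox genes (green) and of the genome (grey) by the arms in which each target was listed, with Wilson 95% intervals for counting error as error bars. Sox5 and Sox6 have their larger shares where a target is found in NanogBiD only, and the other 8 genes have 42.1% of their regions with both targets in both arms.

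Each target was also followed singly. FLAG peaks of the windows formed 80 regions, of which 30 were found in NanogBiD only (background 33.7%) and 15 in NanogWT only (15.8%). BRG1 formed 49 regions, 27 in NanogBiD only (48.4%) and 5 in NanogWT only (9.91%). For H3K27ac the numbers were 15 and 5 of 38 regions (29.1% and 14.6%), and for H3K4me1 12 and 25 of 81 (17.3% and 34.8%). Of the 25 H3K4me1 regions in NanogWT only, 19 were in Sox5 and 1 in Sox6. Of the 14 H3K4me1 regions of Sox6, 3 were in NanogBiD only. Where both arms had a peak of 1 target at the same place, summit heights were set against each other as the log2 of NanogBiD over NanogWT. Its median was -0.07 for FLAG over 35 regions, beside 0.15 over all shared regions. The 95% interval of that median from ranked regions, which are not independent, was -0.25 to 0.38 and included the value of all regions, and the median was 0.29 over the 25 regions of Sox5 and Sox6 and -0.23 over the 10 of the other genes. It was 0.16 for BRG1 over 17 regions (0.14 over all), 0.04 for H3K27ac over 18 (0.08) and -0.16 for H3K4me1 over 44 (-0.18). FLAG height was at least 1.5 times higher in NanogBiD at 8 regions (22.0% of all shared regions were) and at least 1.5 times lower at 4 (8.45%). All 8 of the higher ones and 3 of the 4 lower ones were in Sox5 and Sox6. BRG1 was that much higher at 4 of 17 regions (20.5%) and that much lower at none (4.53%). H3K27ac had no such region in either direction (9.59% higher and 4.01% lower over all), and H3K4me1 had none higher (1.06%) and 4 of 44 lower (11.7%).

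The motifs given above were counted in 201 bases around the FLAG summit. TAATGG was found at 12 of 80 FLAG regions of the Sox windows, 15% (8.79% to 24.4%), where 12.3% of 88183 FLAG regions held it. By arm it was at 9 of 30 regions in NanogBiD only, at 3 of 35 in both arms and at 0 of 15 in NanogWT only, and over all FLAG regions the shares were 16.2%, 11.1% and 7.68%. A SOX match was at 8 of the 80 regions (all regions 8.82%), 6 of them among the 30 in NanogBiD only, 20% (9.51% to 37.3%), where 9.96% of all NanogBiD-only regions had one. A further 2 were among the 35 in both arms (8.39% over all) and none among the 15 in NanogWT only (7.77%). The octamer was at 2 (4.06%) and AP-1 at 9 (13%). In a window of the same length 1 kb away, TAATGG was at 5 of the 80 (7.97% of all regions), a SOX match at 7 (7.07%), the octamer at 2 (1.35%) and AP-1 at 4 (3.43%). Over the 80 regions SOX and octamer matches were thus about as frequent there as at the summits, but the classes differed. In the NanogBiD-only class a SOX match was at 6 of 30 summits and 1 of 30 windows 1 kb away, and TAATGG at 9 and 3. At regions in both arms a SOX match was at 2 of 35 summits and 5 of 35 windows 1 kb away, and TAATGG at 3 and 1. At the 15 regions in NanogWT only both were at 0 summits and 1 window away. The Sox21 region downstream of the gene, shown next over chr14:118230297-118230497 because it was the strongest FLAG site of a gene without acetylation, held none of these motifs.
Sox21 downstream region: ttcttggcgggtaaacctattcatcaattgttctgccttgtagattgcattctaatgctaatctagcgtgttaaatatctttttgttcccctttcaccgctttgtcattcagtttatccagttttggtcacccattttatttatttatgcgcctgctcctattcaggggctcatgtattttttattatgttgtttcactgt

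The other Sox genes of the annotation, Sox1, Sox3, Sox8, Sox10, Sox12, Sox14, Sox17, Sox18, Sox30 and Sry, served for comparison. Their windows held 12 FLAG peaks in NanogWT and 10 in NanogBiD, 10 and 10 BRG1 peaks, 13 and 12 H3K27ac peaks, and 27 and 27 H3K4me1 peaks. Without Sox5 and Sox6, whose windows make up 80.2% of the member length, the members held 18 and 13 FLAG and 9 and 12 BRG1 peaks. They also held 9 and 10 H3K27ac peaks and 25 H3K4me1 peaks in each arm. Of the 10 comparison genes 2 had more BRG1 peaks in NanogBiD and 2 had fewer. FLAG was listed in both arms at 2 of their starts and was higher in NanogBiD at both, with 23 and 34 tags at Sox1 and 38 and 45 at Sox12, the opposite direction to the member starts. The height ratios, 1.48 (0.846 to 2.63) and 1.18 (0.752 to 1.87), had intervals that included 1. Of all such starts 57.3% were higher in NanogBiD. BRG1 in both arms was found at 3 of their starts, higher in NanogBiD at Sox1 (15 and 27 tags), equal at Sox30 (13 tags) and lower at Sox12 (35 and 34 tags).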

How the data were processed

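The authors removed adapters with Trim Galore 0.6.4, aligned reads to mm10 with Bowtie2 2.4.5, filtered them with SAMtools 1.16.1, merged replicates and called peaks with MACS 1.4.2 without a control library being named (steps from the study's methods, versions from the submitters' processing notes). A general statement of the study on replicates covers all its experiments, but how many CUT&Tag libraries were merged into each list is not given in the sources used here, and labels and methods name different kits and cell numbers. In the deposited peak lists the score is the caller's significance score, and the second kind of deposited list gives a signal, the number of tags piled up at each summit. The study states that signals were normalized to a set number of reads per sample. The deposited summit heights are whole numbers, however, and were taken as not scaled. Depth is unknown, so more peaks can come from a deeper library.

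Peaks were placed by their summit, using GENCODE M21 and the GRCm38 genome. All peak ends lay within the chromosome lengths of that genome. Peaks of the compared lists were merged into regions where they overlapped or touched. Ratios of peak numbers or of summit heights have exact binomial 95% intervals and shares have Wilson intervals. Both cover counting error only, not variation between cultures, and peaks of 1 gene are not independent. For regions singled out after their values were seen, the intervals do not account for that choice. Counting and merging were tested on simulated data, where 164 of 164 regions were returned in their class. Named with coordinates were, for each gene, the regions with the highest FLAG and BRG1 summits, those over a start site, those with FLAG and BRG1 in 1 arm only and, for Sox2 and Sox15, every region. The members, gene lists and rules were chosen with earlier results of these data known. Protein sequences were not used here. Python 3.11.15, pandas 2.3.3, scipy 1.17.1, pysam 0.24.0 and samtools 1.23.1 were used.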

Additional observations from a re-analysis of the deposited data

How the results depend on the processing

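With 1 merged list per group, a missing peak means only that none passed the authors' threshold, and differences in depth between arms were not measured. Of 97 recomputed totals and counts of regions, 88 stayed within the interval of the deposited lists or within 1.5 times the count, and 9 did not. The 14 regions where NanogBiD alone had both FLAG and BRG1 became 8 under a minimum score of 100, 3 when each list was cut to its top 20000 peaks by score, 5 with lists of equal size, 2 with summits of at least 15 tags, 2 without Sox5 and Sox6, and 6 without Sox5 alone. The BRG1 ratio of 2.0 became 1.14 with the top 20000 peaks, the FLAG ratio of 1.27 became 0.722 without Sox5 and Sox6, and the H3K4me1 ratio of 0.817 became 0.488 with summits of at least 15 tags. Leaving out each gene in turn, a setting chosen after seeing the data, gave BRG1 ratios of 1.64 (without Sox5) to 2.21 (without Sox15), FLAG ratios of 1.06 to 1.32, H3K27ac ratios of 1.22 to 1.5 and H3K4me1 ratios of 0.763 to 1.03. The interval of the BRG1 ratio without Sox5, 0.810 to 3.45, included 1.

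The difference in peak number of single genes, NanogBiD minus NanogWT, stayed the same in 195 of 324 recomputations, took another value in 118 and turned its sign in 11. For Sox2 H3K4me1 it was -2 under a minimum score of 100, -1 with the top 20000 peaks and -1 with 150 kb on each side, and for Sox2 FLAG it was 3 with 150 kb. With the top 20000 peaks it was -1 for Sox13 BRG1, 1 for Sox15 H3K4me1, -1 for Sox5 H3K27ac and 1 for Sox5 H3K4me1. It was -3 for Sox6 H3K4me1 with summits of at least 15 tags, and with 50 kb on each side it was 1 for Sox15 FLAG and 2 for Sox15 H3K4me1. After the median of all shared regions was subtracted, the median log2 height ratio of H3K4me1 was 0.023, against -0.16 before. The cause was not tested. No paired analysis was made, since replicates had been merged before the deposited peaks were called.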
